A study of Mus musculus with 2 samples.

Results

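Signalling through the interleukin-6 (IL-6) family was described at the RNA level for 10 genes: the ligand gene Osm, the receptor genes Il6ra and Il6st, the kinase genes Jak1, Jak2 and Jak3, the transcription factor gene Stat3, and the feedback inhibitor genes Socs1, Socs3 and Cish. They were chosen by name, and all 10 have a row among the 28482 genes of the matrix. Single-cell RNA was measured in CD45+ cells, that is leukocytes and microglia, from the spinal cords of C57BL/6 mice with experimental autoimmune encephalomyelitis (EAE), a model of multiple sclerosis, at day 15 after induction. All 4 mice carried EAE, 2 were untreated and 2 were treated with an inhibitor that the labels do not name and for which they state neither target nor dose, and there were no mice without EAE. Each mouse was marked by its own antibody hashtag and all 4 were run together, so a replicate is a mouse.

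After filtering, 4326 and 4537 cells of the untreated mice and 5453 and 4940 cells of the treated mice were kept, with summed counts of 49207583 to 61771395 per mouse. They formed 26 clusters named from marker genes, and a cell type name stands for resemblance in these markers. Neutrophils numbered 1043 and 863 in the untreated and 3433 and 1861 in the treated mice, and T cells 1874 and 2365 against 973 and 1713. Mitochondrial counts made up a median of 3.82% and 4.17% of a cell's counts against 2.41% and 3.45%. Cells called doublet-like made up 8.41% and 8.45% against 3.56% and 4.47%, so that removal was unequal between the groups. A value in CPM is a gene's count over the summed count of a cell type in 1 mouse, times 1000000; values were compared between cell types for 1 gene at a time. The members were left out of the genes used for clustering.

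IL-6 binds a specific receptor chain, IL-6 receptor alpha (Il6ra), and the pair recruits gp130 (Il6st), the signalling chain shared by the IL-6 family. Oncostatin M (Osm) belongs to the same family and signals through gp130 together with its own receptor chain. Chains of cytokine receptors hold Janus kinases (Jak1, Jak2, Jak3), which phosphorylate STAT factors such as Stat3, and STAT factors switch on Socs3, Socs1 and Cish, whose proteins then damp signalling from the same or other receptors. In EAE, IL-6 is best known for its part in the formation of T helper cells that make IL-17.

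STAT dimers bind palindromic elements of the form TTCNNNGAA, so this sequence and its narrower form TTCCNGGAA, every match of which is also a match of the first, were searched on both strands in the RefSeq promoters of GRCm38.p6, from 250 bases before to 50 after a gene's start. Both forms are their own reverse complement. The table matched 9 of the 10 genes, all but Osm. Cish held 2 matches of TTCNNNGAA and 1 of TTCCNGGAA, Socs3 held 1 of the first, and Il6ra, Il6st, Stat3, Socs1, Jak1, Jak2 and Jak3 held none in this window. Over all 32851 promoters of 300 bases, 8.30% held TTCNNNGAA at least once, 0.457% held it 2 or more times and 1.15% held TTCCNGGAA. The 2 windows with a match are shown from 250 bases before to 30 after the start, on the strand of the gene, with the matches in capitals; Cish lies at chr9:107296409-107296688 on the plus strand and Socs3 at chr11:117969337-117969616 on the minus strand.
Cish: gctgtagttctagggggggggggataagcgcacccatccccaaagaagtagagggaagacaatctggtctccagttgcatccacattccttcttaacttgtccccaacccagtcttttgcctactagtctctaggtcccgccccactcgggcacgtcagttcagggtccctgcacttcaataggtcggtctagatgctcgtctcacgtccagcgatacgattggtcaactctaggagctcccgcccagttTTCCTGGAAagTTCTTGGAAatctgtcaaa
Socs3: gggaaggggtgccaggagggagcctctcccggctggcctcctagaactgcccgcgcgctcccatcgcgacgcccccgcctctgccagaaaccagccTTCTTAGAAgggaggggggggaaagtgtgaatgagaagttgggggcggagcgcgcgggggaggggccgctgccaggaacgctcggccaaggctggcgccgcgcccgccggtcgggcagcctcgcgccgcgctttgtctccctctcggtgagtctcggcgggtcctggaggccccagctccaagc
In the Cish window the matches begin at the RefSeq start and at base 262 of 300, and in the Socs3 window at base 97. GENCODE places the start of the gene elsewhere, at 107296026 for Cish and 117970047 for Socs3, both outside and upstream of these windows. A match describes the letters and no binding was measured.

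The genes themselves lie, in GRCm38 with GENCODE annotation, at chr11:4236420-4241026 (Osm), chr3:89864059-89913196 (Il6ra), chr13:112464070-112510086 (Il6st), chr4:101152367-101265282 (Jak1), chr19:29251828-29313080 (Jak2), chr8:71676296-71690575 (Jak3), chr11:100885098-100939540 (Stat3), chr11:117966079-117970047 (Socs3), chr16:10782240-10785536 (Socs1) and chr9:107296026-107302784 (Cish). Exons of Stat3 overlap the gene Stat5a, those of Jak1 overlap Raver2, those of Jak3 overlap Insl3, those of Il6ra overlap Gm42809 and those of Cish overlap Gm17040 and Gm17041. The labels do not say whether counting used strand, so reads in these overlaps are uncertain.

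**Figure D1:**
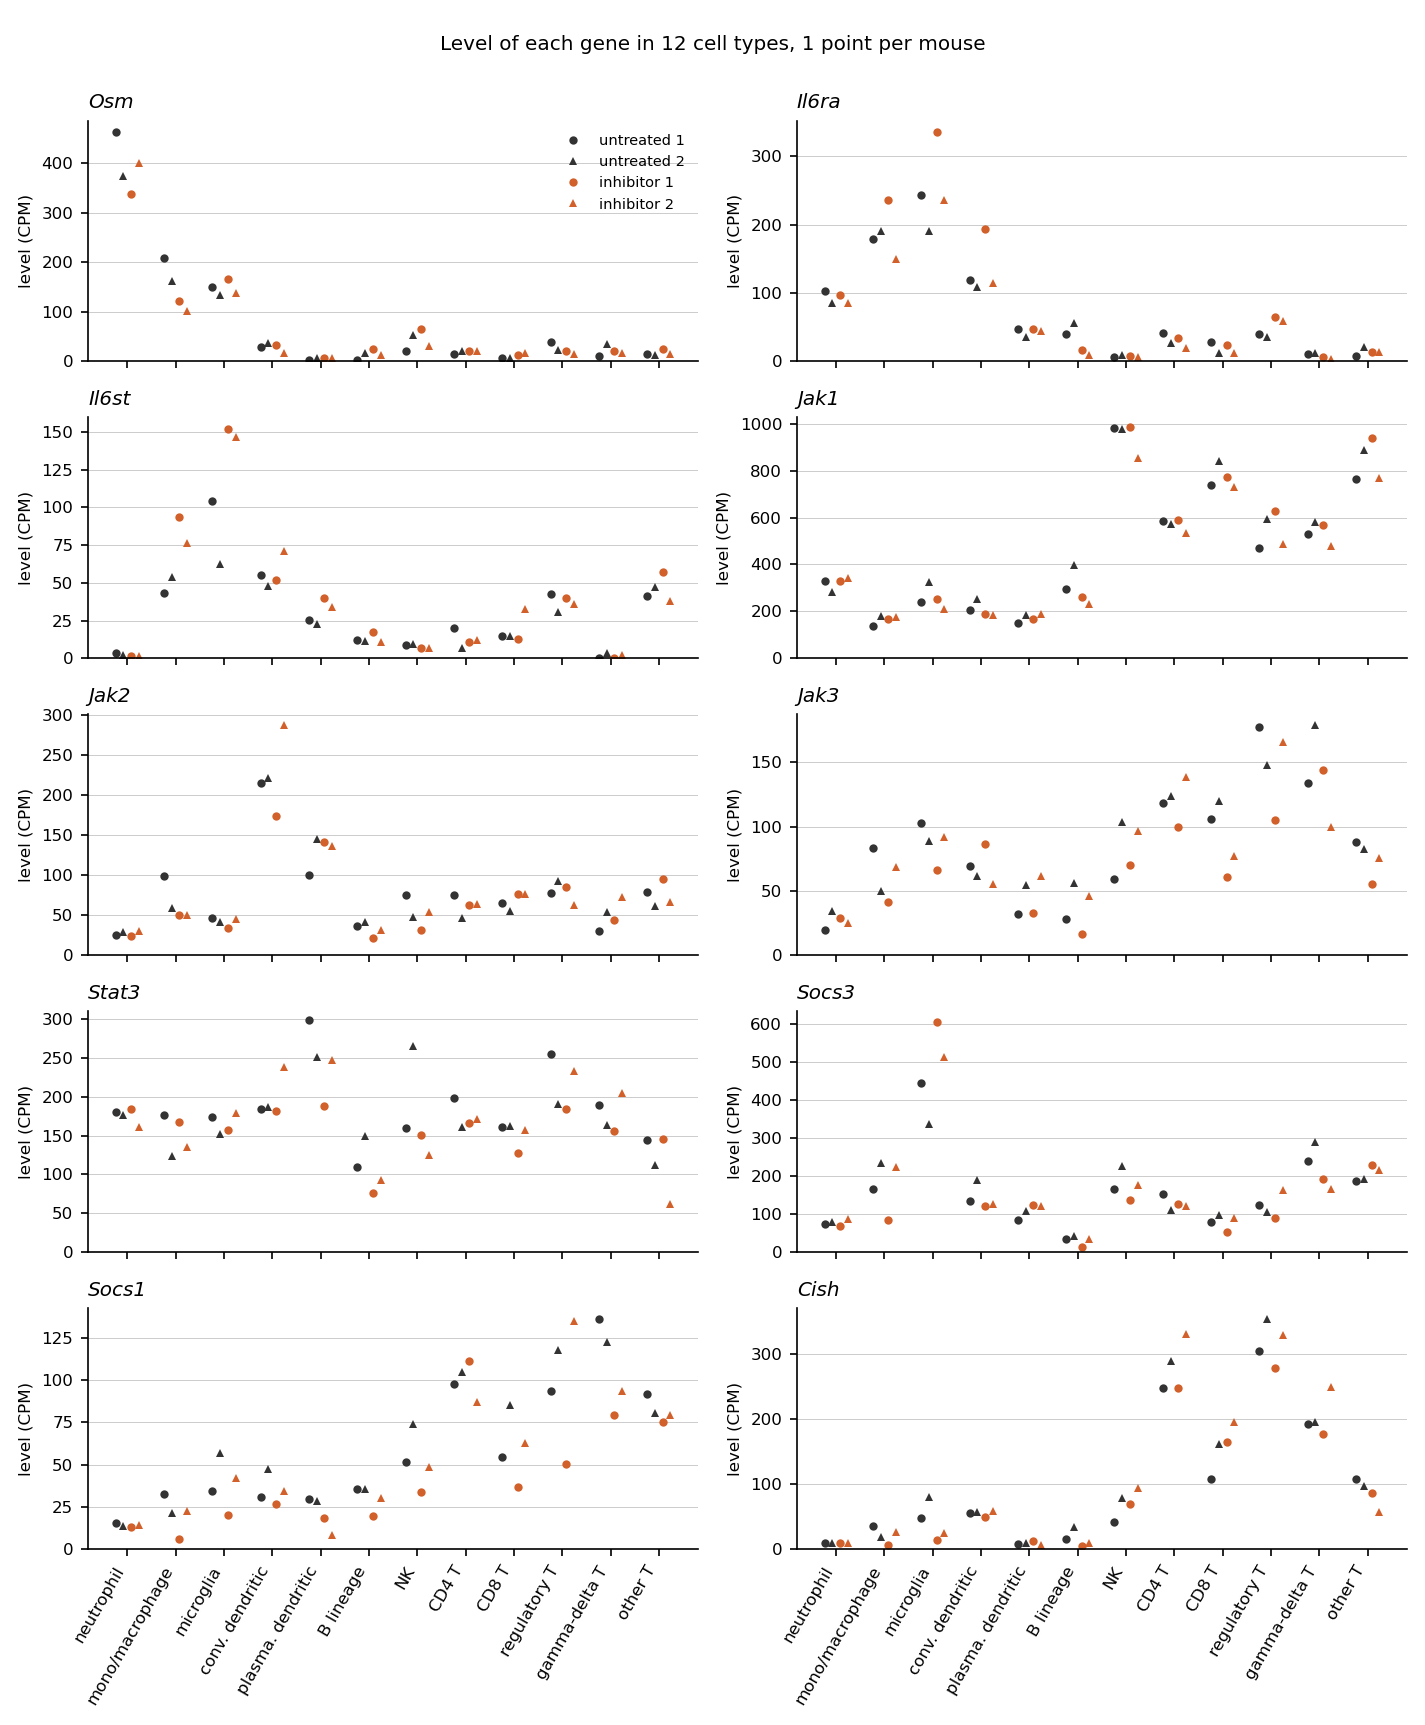
Level of each of the 10 genes in CPM (linear axis from 0, scaled per gene) in 12 cell types, with 1 point per mouse, untreated in black and inhibitor-treated in orange. Osm stood highest in neutrophils, Il6ra, Il6st and Socs3 in microglia, Jak2 in conventional dendritic cells, Jak1 in NK cells and Cish in T cell subsets, while Stat3 varied least between cell types.

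Oncostatin M was a transcript of myeloid cells. In neutrophils, phagocytes of the innate response, Osm stood at 464 and 374 CPM in the untreated and 338 and 401 CPM in the treated mice. In monocytes and macrophages it stood at 208 and 162 CPM and 123 and 101 CPM, and in microglia at 150 and 134 CPM and 167 and 139 CPM. All 4 mice were thus higher in neutrophils than any mouse in the other 11 cell types, and monocytes and macrophages overlapped microglia. The remaining 9 cell types lay below these, with means from 42.2 CPM in NK cells down to 5.79 CPM in plasmacytoid dendritic cells. Of the neutrophils, 63.2% held an Osm count, against 7.31% of CD4 T cells, a type low in the gene, where median counts per cell were 8922.5 and 6815.5. With each cell thinned to 2500 counts, which left out 559 shallower cells, the shares were 44.2% and 3.58%.

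IL-6 itself was sparse in microglia and in neutrophils. Other cell types are not given for the genes of this paragraph. Il6, the gene of the family's founding ligand, was counted in 38 of 1700 microglia (2.24%), with levels of 4.64 to 9.03 CPM over the 4 mice, and in 3 of 7200 neutrophils. Osmr, the chain that pairs with gp130 for oncostatin M, was counted in 4 microglia and 21 neutrophils, at 0.11 to 0.46 CPM and 0.16 to 0.42 CPM. Cells without CD45, such as astrocytes and endothelium, were outside the sort, so no level of either gene in them is given here.

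The receptor chains differed in their range. Il6ra was highest in microglia, at 243 and 191 CPM in the untreated and 335 and 235 CPM in the treated mice. Next came monocytes and macrophages (150 to 235 CPM) and conventional dendritic cells (109 to 193 CPM), and these 3 overlapped in turn. Neutrophils followed at 84.9 to 103 CPM, apart from their neighbours on both sides, and then regulatory T cells at 36.2 to 64.9 CPM. CD4 T cells held 18.9 to 41.1 CPM, and gamma-delta T cells and NK cells were lowest, with means of 8.31 and 7.48 CPM. The mean in microglia was 33.6 times that in NK cells.

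Il6st, which encodes the shared signalling chain gp130, followed the same order at its top. Microglia stood at 104 and 62.6 CPM in the untreated and 152 and 147 CPM in the treated mice, monocytes and macrophages at 43.1 to 93.5 CPM and conventional dendritic cells at 47.7 to 71.3 CPM, each overlapping the next. T cells without subtype are a cluster whose 10 leading genes hold Klra6 and Xcl1 and also Trdc, Trgc2 and Trgc4, genes of the gamma-delta T cell receptor. Among T cells, these held 38.2 to 57.1 CPM and regulatory T cells 30.5 to 42.5 CPM. CD4 T cells were lower at 7.09 to 20.3 CPM. The separate cluster named gamma-delta T cells gave 8 Il6st counts in all from 475 cells.

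Neutrophils carried Il6ra with little Il6st. Their Il6st level was 1.53 to 3.48 CPM over the 4 mice, below the lowest mouse of all cell types but gamma-delta T cells. Il6st was counted in 1.58% of neutrophils and in 33.5% of microglia, whose median count per cell was 9563.5, and in 0.562% and 17.5% after thinning. Il6ra was counted in 29.7% of neutrophils and 57.2% of microglia. RNA does not give the protein at the surface, and soluble receptor was not measured.

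The Janus kinases were highest in different cell types. Jak1, the kinase that pairs with gp130 and with most cytokine receptors, was highest in NK cells at 982 and 976 CPM in the untreated and 984 and 855 CPM in the treated mice. T cells without subtype (763 to 939 CPM) and CD8 T cells (729 to 839 CPM) overlapped in turn, and CD4, regulatory and gamma-delta T cells formed a lower group between 470 and 626 CPM. Neutrophils held 284 to 344 CPM, and monocytes and macrophages were lowest with a mean of 166 CPM.

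Jak2, which serves receptors of the granulocyte and macrophage growth factors and of interferon gamma, was highest in conventional dendritic cells at 215 and 221 CPM in the untreated and 173 and 287 CPM in the treated mice. Plasmacytoid dendritic cells came next at 100.2 to 145 CPM, apart from conventional dendritic cells above and from regulatory T cells, at 63.2 to 92.6 CPM, below. The other 9 cell types lay under 98.8 CPM in every mouse, with neutrophils lowest (mean 27.2 CPM). Jak3, the kinase bound to the common gamma chain of the IL-2 receptor family, was highest in regulatory T cells (105 to 178 CPM), gamma-delta T cells (99.4 to 179 CPM) and CD4 T cells (100.1 to 138 CPM). These 3 overlapped, so their order is not resolved. Neutrophils had the lowest mean, at 19.8 to 34.6 CPM, and overlapped B lineage cells (16.4 to 56.0 CPM).

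Stat3, the factor that IL-6 receptors activate, was the most even of the 10 genes. Its highest mean, 247 CPM in plasmacytoid dendritic cells, was 2.30 times its lowest, 107 CPM in B lineage cells, and each cell type overlapped its neighbour in the order. For the other 9 genes this ratio lay between 5.48 (Jak3) and 83.6 (Il6st).

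The feedback inhibitors differed in where they were highest. Socs3, the inhibitor that binds gp130 and ends IL-6 signals, was highest in microglia at 446 and 337 CPM in the untreated and 604 and 514 CPM in the treated mice. Every microglia value lay above every value of the other 11 cell types, of which gamma-delta T cells (167 to 289 CPM), T cells without subtype (188 to 229 CPM), monocytes and macrophages (84.2 to 236 CPM) and NK cells (138 to 226 CPM) overlapped. Socs3 was lowest in B lineage cells at 13.7 to 42.7 CPM. The early response genes, a sign of cell handling, summed to 21193 and 17857 CPM in microglia of untreated and 34658 and 22874 CPM in those of treated mice, against 5348 to 6922 CPM in T cells, and their part in the Socs3 level was not tested.

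Cish, an inhibitor induced by STAT5 after IL-2 and related cytokines, was a gene of T cells. Regulatory T cells held 306 and 354 CPM in the untreated and 279 and 330 CPM in the treated mice, and CD4 T cells 248 and 290 CPM and 248 and 332 CPM. Gamma-delta T cells (178 to 249 CPM) and CD8 T cells (108 to 196 CPM) followed, each overlapping the next. Neutrophils stood at 8.53 to 9.33 CPM. A Cish count was found in 48.2% of regulatory T cells, 40.8% of CD4 T cells and 4.22% of neutrophils, and in 34.9%, 29.0% and 1.45% after thinning.

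Within the CD4 T cells, 492 cells led by Ccl1, Rgs16, Lta and Ifng, genes of activated cells, held Cish at 413 and 395 CPM in the untreated and 295 and 458 CPM in the treated mice. The 3684 CD4 T cells of the largest cluster held 216 and 275 CPM and 255 and 307.1 CPM, and the 300 led by interferon-induced genes 179 and 275 CPM and 153 and 208 CPM. The activated cluster was the highest of the 3 in each mouse. Its Socs3 was the lowest of the 3 in each mouse, at 64.2 to 85.0 CPM against 119 to 168 CPM in the largest cluster.

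Socs1, which inhibits Janus kinases directly and restrains interferon signals, was also highest in T cells. Gamma-delta T cells stood at 136 and 122 CPM in the untreated and 79.1 and 93.8 CPM in the treated mice, CD4 T cells at 87.0 to 111 CPM and regulatory T cells at 50.2 to 135 CPM, so that their order is not resolved. Neutrophils had the lowest mean, at 12.9 to 15.5 CPM, and overlapped monocytes and macrophages (5.65 to 32.3 CPM) and plasmacytoid dendritic cells (8.16 to 29.5 CPM).

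Neutrophil states differed in several members. The states, named from markers, were cycling precursors (425 cells), immature cells with secondary granule genes (2675), mature cells (2980) and inflammatory cells (1120), with median counts per cell of 26997, 11619, 7393.5 and 6527.5. Il6ra stood at 31.0 to 35.7 CPM in cycling precursors, 67.1 to 86.6 CPM in immature, 117 to 131 CPM in mature and 153 to 169 CPM in inflammatory neutrophils. No state overlapped the next in any mouse. Osm stood at 66.3 to 84.0 CPM, 302 to 399.9 CPM, 433 to 629 CPM and 583 to 718 CPM in the same order, and only the mature and inflammatory states overlapped.

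Socs3 was concentrated in the inflammatory state, at 263 and 340 CPM in the untreated and 211 and 317 CPM in the treated mice. Mature neutrophils held 89.8 to 118 CPM, immature ones 31.9 to 40.02 CPM and cycling precursors 11.1 to 49.4 CPM. Stat3 ranged from 105 to 133 CPM in cycling precursors to 188 to 279 CPM in inflammatory neutrophils, with immature ones at 137 to 167 CPM and mature ones at 192 to 238 CPM, and only the mature and inflammatory states overlapped. Il6st stayed at or under 7.45 CPM in every state and mouse.

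**Figure D2:**
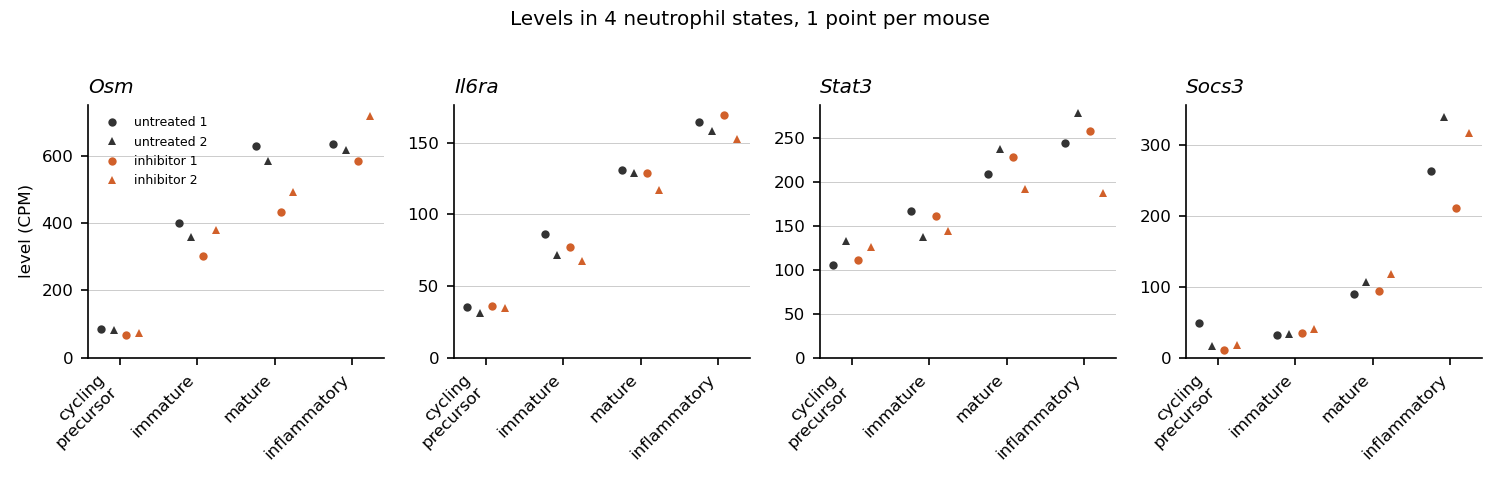
Levels in CPM (linear axes from 0) of Osm, Il6ra, Stat3 and Socs3 in 4 neutrophil states, with 1 point per mouse, untreated in black and inhibitor-treated in orange. Il6ra separated all 4 states, and Socs3 was highest in the inflammatory state at 211 to 340 CPM.

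Profiles were compared over 48 points, the 12 cell types in each of 4 mice, on log2(CPM + 1) among genes with a mean of at least 10 CPM. The points share 1 run and repeat the same cell types in each mouse, so a Pearson r is a description only. Osm was most like Csf3r, the receptor of the neutrophil growth factor G-CSF (r = 0.891), Itgam, an adhesion molecule of myeloid cells (0.879), and Ccl6, a chemokine gene (0.867). Cish was most like Icos, a costimulatory receptor of T cells (0.945), Trbc2, a T cell receptor constant region (0.933), and Zap70, a kinase of the T cell receptor (0.927). Socs1 was most like Zap70 (0.898), Trbc2 (0.891) and Gimap3 (0.885). Jak1 was most like Klrc1 (0.885) and Il2rb (0.872), a receptor of NK cells and the IL-2 receptor beta chain, and Rab37 (0.872).

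Il6ra was most like Lipe (0.861), Cd300c2 (0.858) and Man2b1 (0.857), Il6st like Aig1 (0.816), Ehd4 (0.788) and Clta (0.783), and Socs3 like Pdgfb (0.810), Cyp4v3 (0.764) and Klf6 (0.751). Jak2 was most like Irf7 (0.789), a factor of interferon responses, Psme1 (0.767) and Acadl (0.767), and Jak3 like Gm43302 (0.868), Gbp10 (0.854) and Cish (0.854). Stat3 had the least similar nearest genes, Tmbim6 (0.657), Rps6ka1 (0.654) and Irf7 (0.650). Among the members, Cish and Socs1 had an r of 0.885, Il6ra and Jak1 of -0.72, and Il6st and Osm of 0.01.

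The design also asks how the inhibitor changed these genes. Counts were summed per mouse and cell type and tested with the quasi-likelihood test of edgeR at an adjusted p under 0.05 over all genes of the population; each log2 fold compares treated with untreated mice and carries its standard error (SE), n = 2 mice per group. No member passed in any of the 18 populations. In 15 of 176 member tests the unadjusted edgeR p was below 0.05. Of all genes tested in a population, 3.47% (conventional dendritic cells) to 10.5% (microglia) had such a p. With DESeq2 1 member passed. The background was as sparse: edgeR called 0% of the genes tested in 15 of the 18 populations, 0.00917% in B lineage cells, 0.0495% in CD8 T cells and 0.00987% in cycling neutrophil precursors. At an unadjusted p under 0.05, edgeR had 2131 of 21148 genes in all kept cells and DESeq2 2066. In neutrophils the numbers were 741 and 398 of 14873, in T cells 780 and 414 of 16577, and in microglia 1502 and 1243 of 14366. At an adjusted p under 0.05 edgeR called 0 genes in each of these populations. DESeq2 called 426, 5, 6 and 153, in the same order.

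**Figure D3:**
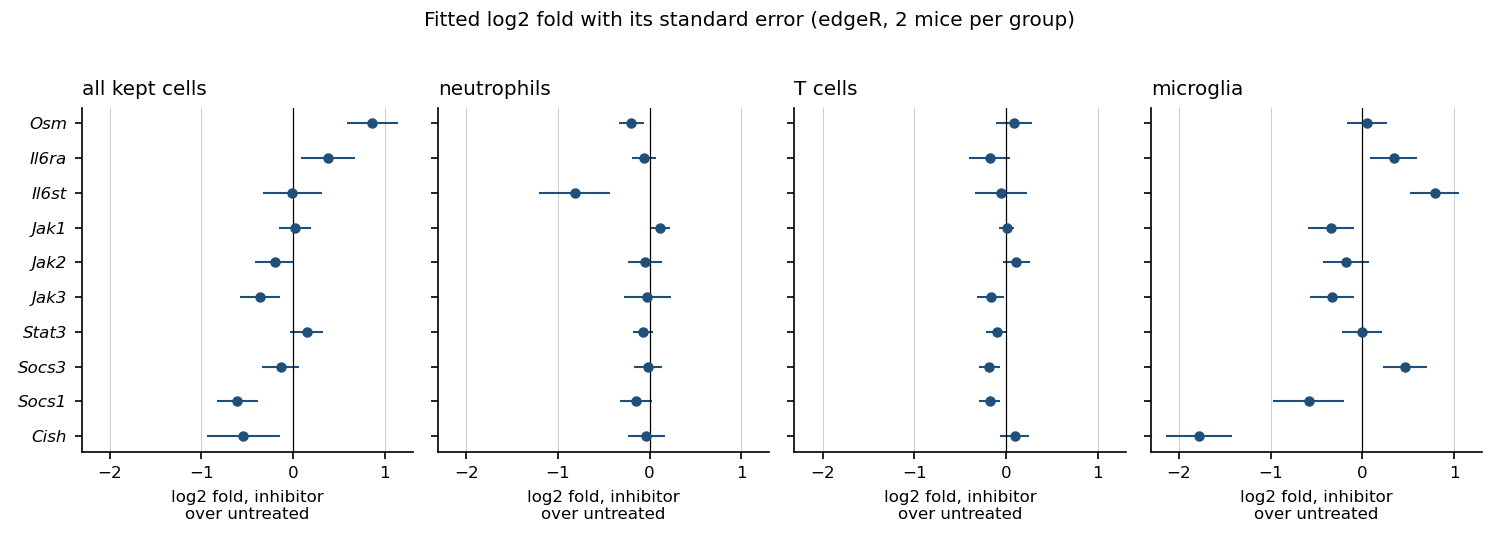
Fitted log2 fold of each gene, inhibitor-treated over untreated, with bars of 1 SE (edgeR, 2 mice per group), in all kept cells, neutrophils, T cells and microglia. Within neutrophils and T cells the folds lay between -0.20 and 0.12 but for Il6st in neutrophils (-0.82), and Cish in microglia was the lowest at -1.78.

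Over all kept cells, Osm stood at 150 and 117 CPM in the untreated and 240 and 174 CPM in the treated mice. The groups did not overlap, and the log2 fold was 0.86 ± 0.28 (edgeR adjusted p = 0.471). With neutrophils, B lineage cells, progenitors and erythroid cells left out it was 0.13, and within neutrophils, the cells that held most of it, it was -0.20 ± 0.14. In such sums over cell types, more cells of a type and more RNA per cell cannot be told apart. Socs1, a gene of T cells here, stood at 51.5 and 59.97 CPM against 23.9 and 40.9 CPM, apart, with a log2 fold of -0.61 ± 0.22 (adjusted p = 0.478).

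Of the other members in all kept cells, Cish had a log2 fold of -0.54 ± 0.40, Jak3 of -0.36 ± 0.22, Jak2 of -0.20 ± 0.21, Socs3 of -0.14 ± 0.20, Il6st of -0.01 ± 0.32, Jak1 of 0.02 ± 0.18, Stat3 of 0.15 ± 0.18 and Il6ra of 0.38 ± 0.30, with adjusted p from 0.584 to 0.994. Both treated mice lay above (Osm) or below (Socs1, Jak1, Jak2, Jak3) both untreated mice in CPM for 5 of the 10, beside 53.1% of all genes tested. Left without treated replicate 2, Osm (1.19), Socs1 (-0.88), Cish (-1.26) and Jak3 (-0.66) passed, among 2136 genes (9.65% of those tested). Treated replicate 1, then the only treated mouse, held 3433 neutrophils and 973 T cells, and its lone value is assumed to vary like the untreated ones; the part of cell numbers was not tested.

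Within neutrophils no member had an unadjusted p under 0.05. Cish stood at 8.53 and 9.33 CPM in the untreated and 8.72 and 9.03 CPM in the treated mice, and Stat3 at 181 and 176 CPM and 185 and 161 CPM. Osm, given above, passed without untreated replicate 2 (log2 fold -0.33, adjusted p = 0.0111), as did 1.94% of all genes tested. The log2 folds in all mice were -0.03 ± 0.20 for Cish, -0.07 ± 0.11 for Stat3, -0.06 ± 0.13 for Il6ra, -0.02 ± 0.15 for Socs3, -0.15 ± 0.18 for Socs1, 0.12 ± 0.11 for Jak1, -0.05 ± 0.18 for Jak2 and -0.02 ± 0.26 for Jak3. Il6st, at 3.48 and 2.06 against 1.64 and 1.53 CPM, had -0.82 ± 0.39, on 165 counts in all. The edgeR adjusted p lay between 0.975 and 0.999, and 2 of the 10 members (Il6st and Jak1) did not overlap between groups, beside 33.8% of all genes.

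By state, Osm in mature neutrophils stood at 629 and 585 CPM in the untreated and 433 and 492 CPM in the treated mice. The log2 fold was -0.45 ± 0.12 (unadjusted p = 0.00609, edgeR adjusted p = 0.879). Left without untreated replicate 1 it passed (adjusted p = 0.0111), as did 4.17% of all genes tested. The 13 microglia markers summed to 266 and 290 CPM in the mature neutrophils of untreated and 204 and 191 CPM in those of treated mice, with 8 of 13 lower in both treated mice, and their part in the Osm value was not tested. In inflammatory neutrophils Jak2 stood at 53.6 and 73.7 CPM against 30.8 and 35.6 CPM (log2 fold -1.004 ± 0.34, adjusted p = 0.946), and in cycling precursors Socs3 stood at 49.4 and 16.5 CPM against 11.1 and 17.2 CPM (-1.22 ± 0.52, adjusted p = 0.9995). Untreated replicate 1 was the single high mouse for Socs3, whose fold passed without untreated replicate 2 (-1.81, adjusted p = 0.0201, beside 0.725% of all genes) and was 0.085 at a finer clustering.

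Within T cells no member had an unadjusted p under 0.05 either. Socs3 stood at 153 and 132 CPM in the untreated and 122 and 128 CPM in the treated mice, and Cish at 214 and 268 CPM against 218 and 292 CPM. The log2 folds were -0.18 ± 0.11 for Socs3 and for Socs1, 0.10 ± 0.16 for Cish, -0.18 ± 0.22 for Il6ra, -0.05 ± 0.28 for Il6st, 0.09 ± 0.20 for Osm, -0.10 ± 0.11 for Stat3, 0.01 ± 0.08 for Jak1, 0.11 ± 0.15 for Jak2 and -0.17 ± 0.15 for Jak3, all with an edgeR adjusted p of 0.9997. Socs1 and Socs3 did not overlap between groups, 2 of 10 members, beside 32.8% of all genes.

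In the subsets, gamma-delta T cells held Socs3 at 241 and 289 CPM in the untreated and 193 and 167 CPM in the treated mice. The log2 fold was -0.57 ± 0.22 (unadjusted p = 0.0322, edgeR adjusted p = 0.979). CD8 T cells held Jak3 at 106 and 120 CPM against 60.5 and 77.1 CPM (-0.72 ± 0.26, adjusted p = 0.993). In regulatory and CD4 T cells no member had an unadjusted p under 0.05.

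Whether the inhibitor acted differently in neutrophils and T cells was tested in 1 model with a term per mouse. No member and 0% of 17644 genes passed in edgeR, with 735 genes at an unadjusted p under 0.05; DESeq2 was not run for this model. The difference of the log2 folds, neutrophils minus T cells, was largest for Il6st (-0.76 ± 0.39, unadjusted p = 0.0805) and lay between -0.28 and 0.21 for the other 9.

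Microglia, the resident phagocytes of the tissue, held the lowest member p. Cish stood at 48.3 and 80.6 CPM in the untreated and 13.8 and 24.1 CPM in the treated mice. The groups did not overlap, and the log2 fold was -1.78 ± 0.36 (unadjusted p = 0.000705, edgeR adjusted p = 0.188; DESeq2 -1.81, adjusted p = 0.00222). Its edgeR adjusted p was 7.04e-05 without untreated replicate 1 and 0.0183 without treated replicate 2, where 2.87% and 1.30% of all genes passed. It did not pass without untreated replicate 2 (0.383) or treated replicate 1 (0.464). The 14 genes of the T cell marker list summed to 1944 and 4247 CPM in the microglia of untreated and 434 and 946 CPM in those of treated mice. Of these genes 14 of 14 were lower in both treated mice, and none was at 0. T cells held Cish at 214 to 292 CPM, and the part of T cell transcripts in the Cish of microglia was not tested.

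When microglia with any count of the 6 T cell receptor complex genes were left out, an alternative added after the data were seen, 601 of 1700 cells remained. These were 195 of 595 and 65 of 328 cells of the untreated and 169 of 341 and 172 of 436 of the treated mice. Removal was thus unequal between the mice. A cell with few counts in all is also more likely to hold none of the 6 genes, and the part of depth was not tested. In the remaining cells the T cell marker list, whose 14 genes include these 6, still summed to 139 and 144 CPM in the untreated and 82.2 and 94.2 CPM in the treated mice. Cish in the remaining cells stood at 9.53 and 11.1 CPM in the untreated and 3.29 and 9.04 CPM in the treated mice, from 40 counts in all. Its log2 fold was -0.72 ± 0.93 (edgeR adjusted p = 0.999). Il2rb, the IL-2 receptor beta chain, Stat4 and Il7r, the IL-7 receptor chain, 3 genes of T and NK cells, had the lowest p of the other pathway genes in all microglia, with log2 folds of -2.20 ± 0.39, -2.70 ± 0.45 and -1.36 ± 0.29 (adjusted p = 0.188, 0.182 and 0.203). In the remaining cells Il2rb had 0.59 ± 0.92 and Il7r -0.06 ± 0.43, and Stat4 had too few counts to be tested.

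Il6st in microglia stood at 104 and 62.6 CPM in the untreated and 152 and 147 CPM in the treated mice, apart, with a log2 fold of 0.79 ± 0.27 (unadjusted p = 0.0153, edgeR adjusted p = 0.364). In the cells without T cell receptor counts it stood at 142 and 90.7 CPM against 157 and 143 CPM, with 0.32 ± 0.32. Socs3, at 446 and 337 against 604 and 514 CPM, had 0.47 ± 0.24 (adjusted p = 0.549), and 0.05 ± 0.24 in those cells. Together with Cish these were the 3 of 10 members without overlap in all microglia, beside 44.2% of all genes.

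**Figure D4:**
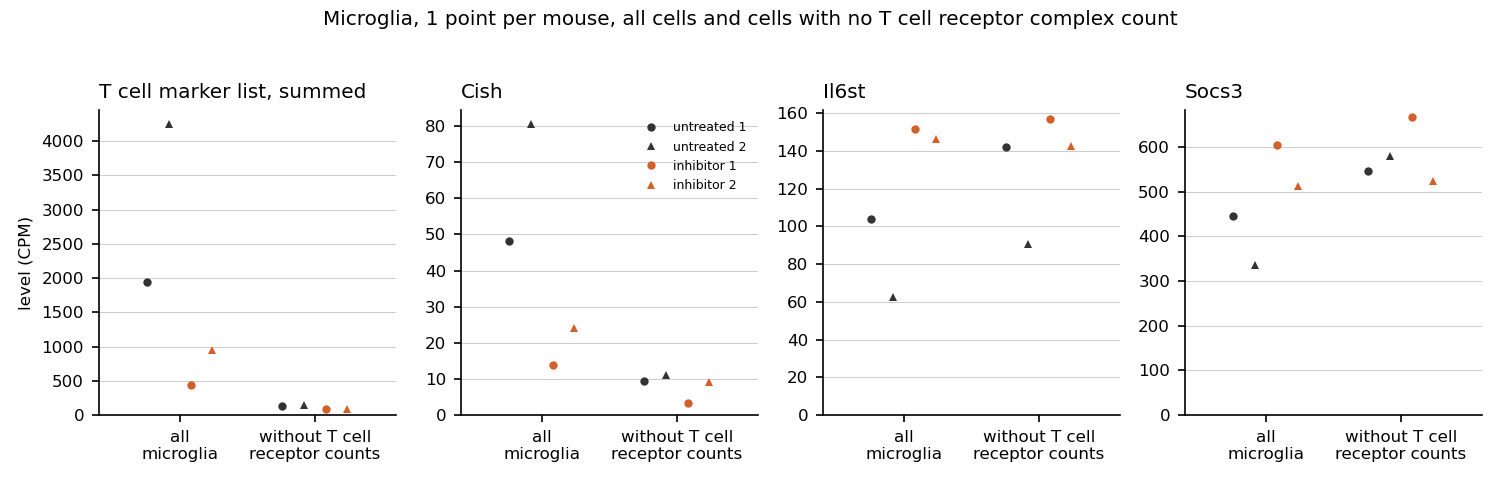
Microglia of each mouse (untreated black, inhibitor-treated orange): summed level of 14 T cell markers and levels of Cish, Il6st and Socs3 in CPM (linear axes from 0), in all 1700 cells and in the 601 with no T cell receptor complex count. Cish stood at 48.3 and 80.6 against 13.8 and 24.1 CPM in all cells, and at 9.53 and 11.1 against 3.29 and 9.04 CPM in the 601.

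The other members in microglia were Il6ra at 0.34 ± 0.25, Osm at 0.05 ± 0.22, Stat3 at -0.0004 ± 0.22, Jak1 at -0.34 ± 0.25, Jak2 at -0.18 ± 0.25, Jak3 at -0.33 ± 0.24 and Socs1 at -0.59 ± 0.38, with adjusted p from 0.641 to 1. Jak1 and Socs1 had 0.28 and 0.085 in the cells without T cell receptor counts. Mitochondrial transcripts, a sign of RNA quality, were lower in the microglia of treated mice, at 28828 and 34534 CPM against 38072 and 41009 CPM, and their part was not tested.

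Monocytes and macrophages held Il6st at 43.1 and 53.9 CPM in the untreated and 93.5 and 76.4 CPM in the treated mice (log2 fold 0.79 ± 0.35, edgeR adjusted p = 0.999). Osm stood at 208 and 162 CPM against 123 and 101 CPM there (-0.74 ± 0.27, adjusted p = 0.999). Both genes are named for an unadjusted p under 0.05, and the share of all genes without overlap was not counted in this cell type. The T cell markers summed to 689 and 861 CPM in the untreated and 256 and 295 CPM in the treated mice of this cell type, with 11 of 14 lower in both, and their part was not tested. In plasmacytoid dendritic cells Socs1 stood at 29.5 and 28.3 CPM against 18.2 and 8.16 CPM (-1.18 ± 0.51, adjusted p = 0.999).

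B lineage cells held Il6ra at 39.99 and 55.4 CPM in the untreated and 16.4 and 9.04 CPM in the treated mice. The log2 fold was -1.96 ± 0.47 (unadjusted p = 0.00299, edgeR adjusted p = 0.524). The mature B cells among them, a cluster led by Ighd and Fcmr, numbered 61 and 157 in the untreated and 33 and 64 in the treated mice, and the largest precursor cluster 60 and 53 against 230 and 113. The mature cluster held Il6ra at 90.7 and 60.1 CPM against 44.8 and 20.3 CPM, and that precursor cluster at 2.19 and 40.4 CPM against 15.2 and 4.60 CPM. Counts summed over all genes were 268016 to 1381730 per mouse in the mature cluster and 321721 to 1313916 in the precursor cluster. These Il6ra levels thus rest on few counts. Cish (-1.94 ± 0.66, adjusted p = 0.545), at 14.8 and 34.1 against 4.95 and 8.56 CPM, and Stat3 (-0.69 ± 0.30, adjusted p = 0.609), at 110 and 150 against 76.5 and 92.8 CPM, also had an unadjusted edgeR p under 0.05. The neutrophil markers summed to 582 and 574 CPM in the B lineage cells of untreated and 3535 and 1307 CPM in those of treated mice, and the part of either shift was not tested. Left without untreated replicate 1, Il6ra and Cish passed (adjusted p = 0.00386 and 0.0114), as did 6.02% of all genes tested. Without a filter on low counts Il6ra passed (0.0273), beside 0.869% of all genes.

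The wider pathway was read from lists chosen with earlier results of these data known. In all 4 of the main populations 0 of the tested genes of each list given here passed in either direction. The 8 genes of the SOCS family had a median log2 fold of -0.25 in all kept cells, with 8 of 8 below 0, of -0.04 in T cells (4 of 8) and of -0.09 in microglia (4 of 8), and 7 of 7 tested were below 0 in neutrophils with a median of -0.28; the medians over all genes were -0.02, 0.0002, 0.02 and -0.01. Mitochondrial transcripts, a sign of RNA quality, had 13 of 13 genes below 0 in each of the 4 populations, and in neutrophils, with a median of -0.53, 12 had an unadjusted p under 0.05; their part was not tested. The 16 STAT3 response genes, such as Bcl3, Junb and Pim1, were 9 above and 7 below 0 in all kept cells and 7 and 7 of 14 in neutrophils. In T cells 5 were above and 11 below 0 (median -0.07), and in microglia 11 above and 4 below of 15 (median 0.19). The list holds the member Socs3, and its Fos and Junb are also early response genes. The early response list had 12 genes above and 2 below 0 in microglia and 14 below 0 in T cells. It had 7 and 7 in all kept cells and 6 and 8 in neutrophils, and its part was not tested. The 20 other receptors that use these kinases were 9 above and 11 below 0 in all kept cells and 4 above and 14 below of 18 in T cells, 8 and 8 in neutrophils and 10 and 7 in microglia.

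Of single pathway genes, in all kept cells the 3 with the lowest p were Il7r, a lymphocyte receptor, at 228 and 279 against 88.9 and 144 CPM (-0.94 ± 0.23), Ebi3, a subunit shared by IL-27 and IL-35, at 45.1 and 47.8 against 103 and 64.9 CPM (1.08 ± 0.30), and Csf3r at 229 and 205 against 498 and 306.8 CPM (1.13 ± 0.33), each with an edgeR adjusted p of 0.471. In neutrophils they were Gbp2, an interferon-induced GTPase (-0.76 ± 0.15), Il27 (-0.51 ± 0.20) and Irf8 (-0.52 ± 0.24), each with an adjusted p of 0.975. In T cells they were Il7r (-0.34 ± 0.11), Fos (-0.30 ± 0.10) and Gbp2 (-0.37 ± 0.15), each with an adjusted p of 1. The early response list, to which Fos belongs, had 14 of 14 genes below 0 in T cells, with a median of -0.26 and 3 at an unadjusted p under 0.05, and its part in the values of Fos, Socs1 and Socs3 was not tested. Gbp2 stood at 37.96 and 33.5 against 20.4 and 22.5 CPM in neutrophils and at 131 and 97.4 against 88.7 and 86.6 CPM in T cells, lower in both treated mice each time.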

How the data were processed

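Raw counts per gene and cell, as the authors deposited them, cover 28482 genes and 25461 cells in 1 matrix. The submitters' processing notes name the build GRCm38; no aligner or counter is given in the sources used here, and it is not stated whether a count is a read or a molecule. Left out first were 3943 hashtag doublets. Cells with over 20% mitochondrial counts (1014) and 1248 cells most like hashtag doublets among 50 neighbours were removed, leaving 19256. Clustering used 2000 variable genes without the members and pathway genes, 40 principal components, 20 neighbours and Leiden at resolution 1.0 (python 3.11.15 with leidenalg 0.10.2, scipy 1.17.1 and igraph 0.11.9). A cell type needed 3 markers in 25% of its cells, and no other type could have more markers among the cluster's 10 leading genes. The 270 cells that stayed unnamed, a cluster with 14 markers of its closest type, failed the second rule. In the matrix 45 genes, none of them a member, had no nonzero count below 4.

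Counts were summed per mouse and cell type where every mouse had 30 cells, filtered by filterByExpr, scaled by TMM and tested with edgeR 4.0.16 (R 4.3.3), with Benjamini-Hochberg p-values over all genes; DESeq2 1.42.0 was an alternative. The fit was tested on simulated data. The members and lists were chosen with earlier results of these data known. Folds are given for every member in 4 populations and elsewhere at an unadjusted p under 0.05; of the pathway genes those at an adjusted p under 0.05, or else the 3 with the lowest p, are named; as most alike, the 3 genes with the highest r. CD4 T cell clusters, B lineage clusters, Il6 and Osmr were described after their values were seen. The labels tie same-numbered mice to no shared litter or day, so they are not paired. The result of 1 pathway list is not reported here.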

Additional observations from a re-analysis of the deposited data

How the results depend on the processing

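Of 842 refits of 63 named log2 folds, 776 kept their direction; 41 passed an adjusted p of 0.05 where the reported fit did not. All 10 genes kept their highest cell type with doublet-like cells kept, at most 10% mitochondrial counts, Leiden 2.0 and levels averaged over cells; Jak3, Cish or Socs1 moved to an overlapping T cell subset under others. Genes called in all kept cells, neutrophils, T cells, microglia and summed over the other populations were 426, 5, 6, 153 and 95 with DESeq2, 0, 90, 82, 489 and 505 without a filter on low counts, and 0, 3, 3, 126 and 41 with the replicate block. The sum over the other populations, 7 as reported, was 3 with RLE size factors, with doublet-like cells kept and at Leiden 2.0, and 4 at most 10% mitochondrial counts and at Leiden 0.5; T cells had 1 at Leiden 2.0. Members called were 1 with DESeq2 and with the replicate block (Cish in microglia) and 2 without a filter. Leaving out 1 mouse gave 0 to 2136, 0 to 843, 1 to 44, 1 to 434 and 432 to 1755 genes, 0 to 5 members, and 0 to 7 genes for the difference between neutrophils and T cells. Apart from Cish in microglia, each member fold that passed with 1 mouse left out did so in 1 of the 4 refits. The cause was not tested. Same-numbered mice share only a number. Folds that turned sign were, for Il6st in all kept cells, 0.0047 (DESeq2), 0.0049 (RLE), 0.036 (replicate block) and 0.55 with neutrophils, B lineage cells, progenitors and erythroid cells left out, where Stat3 had -0.11, Socs3 0.086 and Jak1 -0.10. Il6st in T cells had 0.011 (replicate block), 0.032 (10% mitochondrial), 0.0045 and 0.014 (Leiden 0.5 and 2.0) and 0.024 (members used for clustering), and Jak1 there -0.0056 (no filter) and -0.00074 (10% mitochondrial). In neutrophils Socs3 had 0.0055 (no filter), 0.056 (10% mitochondrial) and 0.018 (members used), Cish 0.031 (Leiden 2.0), and Jak3 0.0031 (no filter) and 0.028 (replicate block). In microglia Osm had -0.022 (10% mitochondrial), -0.012 (Leiden 2.0) and -0.016 (without T cell receptor counts), Stat3 0.023 (doublet-like kept), 0.066 (10% mitochondrial), 0.053 (members used) and 0.30 (without T cell receptor counts), where Socs1 had 0.085, Jak1 0.28 and Il2rb 0.59. Socs3 in cycling precursors had 0.085 (Leiden 2.0). With 1 mouse left out, ranges that crossed 0 were, in all kept cells, Il6ra -0.0024 to 0.69, Il6st -0.38 to 0.49, Stat3 -0.011 to 0.30, Socs3 -0.31 to 0.064, Jak1 -0.050 to 0.097 and Jak2 -0.49 to 0.042. In T cells they were Il6ra -0.47 to 0.10, Il6st -0.42 to 0.43, Osm -0.065 to 0.27, Stat3 -0.22 to 0.038, Cish -0.14 to 0.30, Jak1 -0.081 to 0.096, Jak2 -0.066 to 0.32 and Jak3 -0.42 to 0.040. In neutrophils they were Il6ra -0.17 to 0.076, Stat3 -0.16 to 0.020, Socs3 -0.21 to 0.16, Cish -0.10 to 0.052, Jak2 -0.25 to 0.14 and Jak3 -0.37 to 0.46, and in microglia Osm -0.075 to 0.17, Stat3 -0.11 to 0.10 and Jak2 -0.42 to 0.021. Leiden 0.5 and clustering with the members gave no T cells without subtype, and 10% mitochondrial counts left no monocyte population of 30 cells per mouse, so these were not run. With 2 mice per group the spread between mice limits every fold. Low counts limit Il6st in neutrophils, Cish in the 601 microglia without T cell receptor counts and Il6ra in the B lineage clusters.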

Other observations

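Other genes of the family also differed in level between cell types. Lifr, the receptor chain of leukaemia inhibitory factor, stood at 73.9 to 121 CPM in plasmacytoid dendritic cells over the 4 mice and at 24.6 to 42.5 CPM in microglia. Ebi3 stood at 127 to 145 CPM in neutrophils, while Il27, which encodes its partner in IL-27, stood at 9.67 to 16.5 CPM in neutrophils and 14.8 to 33.7 CPM in microglia. Il27ra, the receptor of IL-27, stood at 106 to 151 CPM in gamma-delta T cells and 77.4 to 93.3 CPM in CD4 T cells. Lif stood at 8.68 to 30.002 CPM in gamma-delta T cells and 6.67 to 13.8 CPM in CD4 T cells.

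Socs2, another feedback inhibitor, stood at 120 to 192 CPM in regulatory T cells and 57.1 to 89.5 CPM in CD4 T cells. In the 28 dendritic cells led by Ccl22, Fscn1 and Ccr7, genes of dendritic cells that migrate to lymph nodes, it stood at 986, 932 and 908 CPM in the 3 mice that had such cells, and 27 of the 28 held a count. Il23r, the IL-23 receptor chain, stood at 29.9 to 99.9 CPM in gamma-delta T cells and 2.76 to 7.26 CPM in CD4 T cells.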
